A study of Mus musculus with 302 samples.

Results

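Livers from 1 mouse cross were compared here, the 75 with the highest and the 75 with the lowest expression of 4 acute phase genes, out of 302. All mice were F2 animals of an intercross of C57BL/6J with C3H/HeJ, 2 inbred mouse strains, bred in both cross directions, and both females and males were used. A 4% fat chow was replaced at 8 weeks by a Western diet (42% fat, 0.15% cholesterol), which was fed for 12 weeks. The mice were killed at an age of 20 weeks, having fasted for 12 h. High, low and remaining mice therefore share diet, age and fast, and the labels give no genotype, cross direction or sex for any mouse. Each array set the RNA of 1 liver, labelled Cy3, against a pool of equal portions from all samples, labelled Cy5, so a value of 0 is the level of the pool.

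The mice were chosen by a score, not by the study's labels. The genes were Saa1, Saa2 and Saa3, which encode serum amyloid A proteins, and Orm1, which encodes orosomucoid 1, and each was read by 1 probe. Each gene was centred within 4 blocks of mice, divided by its SD and averaged over the 4 genes. The blocks combine the side of -0.8 on which the Y-linked gene Eif2s3y lay (160 mice above, 142 below) with the mouse number in the title (159 mice with numbers up to 212, 143 with higher numbers). The score ran from -2.51 to 3.87. The last mouse inside the high group scored 0.556 and the next outside it 0.549, while the low group ended at -0.6152 and the next mouse lay at -0.6149, so the borders fall in a continuous range. The high group held 41 mice above and 34 below the Eif2s3y border, exactly as the low group did. Late numbers made up 45 of the 75 high mice, 41 of the 75 low mice and 57 of the 152 mice between them.

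In the acute phase response, cytokines released during infection or tissue injury, chiefly interleukin-6 and interleukin-1, act on hepatocytes and change which plasma proteins the liver makes. Interleukin-6 signals through the receptor subunit gp130 and the transcription factor STAT3, while interleukin-1 signals through MyD88 to NF-kB, and both act together with C/EBP factors on many of the induced genes. Serum amyloid A, an apolipoprotein of high-density lipoprotein, is among the most strongly induced proteins in mice, whereas orosomucoid, a carrier of drugs and lipids, rises less.

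The 250 bases before the start of the genes that chose the mice, and of 5 genes outside the score that are described by their values below, are shown because binding forms of these factors can be read in them. Sequences are from RefSeq for the build GRCm38.p6, and no window was matched for Orm1. Capitals mark matches, on either strand, to the kappa B form (G 3 times, any 2 bases, T 2 times, any base, C 2 times), TTNNGNAA (C/EBP form) and TTCNNNGAA (STAT form).
Saa1 (chr7:46742981-46743230, minus strand): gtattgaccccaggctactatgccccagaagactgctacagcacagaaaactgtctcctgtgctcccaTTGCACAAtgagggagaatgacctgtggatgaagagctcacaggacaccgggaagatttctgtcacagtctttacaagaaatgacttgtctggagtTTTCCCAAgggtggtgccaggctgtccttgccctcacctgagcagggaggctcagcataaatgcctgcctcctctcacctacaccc
Saa2 (chr7:46751583-46751832, plus strand): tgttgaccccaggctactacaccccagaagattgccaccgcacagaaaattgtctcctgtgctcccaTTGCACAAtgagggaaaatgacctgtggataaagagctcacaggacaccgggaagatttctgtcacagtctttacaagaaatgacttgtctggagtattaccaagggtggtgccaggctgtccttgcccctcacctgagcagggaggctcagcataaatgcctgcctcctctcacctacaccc
Saa3 (chr7:46715677-46715926, minus strand): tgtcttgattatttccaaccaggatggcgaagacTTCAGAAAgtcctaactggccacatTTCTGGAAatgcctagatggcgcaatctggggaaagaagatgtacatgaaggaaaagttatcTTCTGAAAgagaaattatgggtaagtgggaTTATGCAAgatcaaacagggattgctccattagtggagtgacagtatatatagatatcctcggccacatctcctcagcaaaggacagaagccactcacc
Steap4 (chr5:7960222-7960471, plus strand): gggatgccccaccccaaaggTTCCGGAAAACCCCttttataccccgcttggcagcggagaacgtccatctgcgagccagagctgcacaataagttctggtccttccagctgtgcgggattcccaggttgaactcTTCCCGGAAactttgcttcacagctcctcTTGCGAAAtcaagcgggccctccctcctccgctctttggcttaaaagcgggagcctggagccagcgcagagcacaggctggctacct
Lcn2 (chr2:32387740-32387989, minus strand): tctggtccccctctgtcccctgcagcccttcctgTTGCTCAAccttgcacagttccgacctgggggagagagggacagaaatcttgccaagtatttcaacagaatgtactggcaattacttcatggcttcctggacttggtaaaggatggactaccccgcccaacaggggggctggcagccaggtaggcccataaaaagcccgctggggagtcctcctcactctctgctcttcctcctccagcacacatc
Cxcl1 (chr5:90890995-90891244, plus strand): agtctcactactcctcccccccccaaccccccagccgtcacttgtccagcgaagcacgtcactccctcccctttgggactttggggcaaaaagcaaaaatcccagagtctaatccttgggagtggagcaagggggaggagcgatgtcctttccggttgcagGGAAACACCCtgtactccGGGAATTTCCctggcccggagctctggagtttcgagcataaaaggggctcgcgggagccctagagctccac
Socs3 (chr11:117969367-117969616, minus strand): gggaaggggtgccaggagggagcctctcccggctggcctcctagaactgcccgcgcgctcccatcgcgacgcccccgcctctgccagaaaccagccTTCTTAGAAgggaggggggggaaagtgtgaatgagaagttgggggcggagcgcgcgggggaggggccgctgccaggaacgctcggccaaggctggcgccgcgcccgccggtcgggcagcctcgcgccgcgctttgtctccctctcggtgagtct
Itih4 (chr14:30886226-30886475, plus strand): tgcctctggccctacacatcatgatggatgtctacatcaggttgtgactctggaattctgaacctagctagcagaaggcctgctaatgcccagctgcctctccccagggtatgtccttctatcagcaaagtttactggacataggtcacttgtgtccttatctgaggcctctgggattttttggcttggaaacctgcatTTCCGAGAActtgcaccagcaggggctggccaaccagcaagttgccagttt

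The windows of Saa1 and Saa2 were 94.8% identical (238 of 251 aligned positions), and those of Saa1 and Saa3 48.9%. Saa1 and Saa2 share the C/EBP form TTGCACAA, and Saa3 holds 4 matches of that form. Cxcl1 holds a pair of kappa B forms, GGGAATTTCC from 71 to 62 bases before the start and GGAAACACCC from 89 to 80 bases before it. Steap4 holds all 3 forms, and its kappa B match GGAAAACCCC overlaps the C/EBP match TTCCGGAA. The single STAT form of Socs3 is TTCTTAGAA and that of Itih4 is TTCCGAGAA. Over windows that also take in the first bases after the start, the kappa B form was found in 5% of the 8588 windows of tested genes and in 46 of 939 (4.90%) of genes that passed higher, so there was no excess over all of these. It was in 9 of 80 windows (11.3%) of the 100 genes with the largest positive difference. The C/EBP form was found in 33.7% of tested, 33.8% of higher and 41 of 80 largest, and the STAT form in 7.18%, 9.37% and 9 of 80. Over all 32851 windows of the table the shares were 4.79%, 40.7% and 8.30%. These are letter matches and show no binding.

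The genes that set the score differed as the choice required, and their values are a description. Saa1 lay between -1 and 0.0578 in the low mice (median -0.409) and between -0.3 and 0.812 in the high mice (median 0.494). Saa3 had medians of -0.411 and 0.516, and Saa2 of -0.418 and 0.138. Orm1 ranged from -0.213 to 0.0785 in the low mice (median -0.0469) and from -0.139 to 0.651 in the high mice (median 0.0973). For each of the 4 genes the ranges of the groups overlap. The difference in means corresponds to 7.32-fold for Saa1, 7.55-fold for Saa3, 4.14-fold for Saa2 and 1.48-fold for Orm1. The Saa1 and Saa3 probes gave nearly the same values over the mice (r = 0.999), against 0.887 for Saa1 and Saa2 and 0.608 for Saa1 and Orm1, so these 2 probes cannot be treated as separate measures. One of the named values may belong to the other gene, and the score may count 1 gene more than once; this was not tested.

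**Figure D1:**
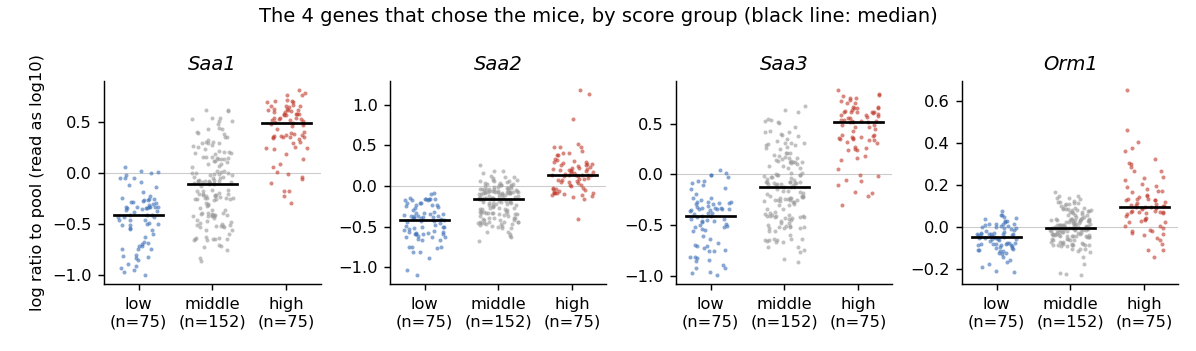
Log ratio to the pool, read as log10, of Saa1, Saa2, Saa3 and Orm1 in the livers of low, middle and high score; each point is 1 mouse and black lines are medians. The medians of Saa1 are -0.409, -0.108 and 0.494, and the groups overlap in all 4 genes.

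Among the genes outside the score, differences were many and mostly small. With the 4 blocks in a limma fit over 21700 rows, 2514 of 10812 named genes (23.3%) passed an adjusted p of 0.05, of which 1188 (11%) were higher and 1326 (12.3%) lower in the high-score livers. The median size of a difference over all named genes was 0.0136 on the log10 scale, or 1.03-fold. At least 1.2-fold was reached by 132 higher (1.22%) and 184 lower genes (1.7%), and at least 1.5-fold by 24 and 9. Of the 2514 genes, 2020 (80.4%) had the same sign in all 4 blocks. The genes were called on these same blocks, so that share is partly set by the call and is no replication. The counts fell when a block was left out. Without the late mice below the Eif2s3y border (22 high, 20 low) 607 genes were higher and 883 lower. Without the late mice above it (23 and 21) 781 were higher and 1072 lower. Without the early mice above it (18 and 20) the counts were 901 and 1065, and without the early mice below it (12 and 14) 1101 and 1054. These fits also have fewer mice, and how much of the fall comes from that was not tested. Both groups were picked from a measured score, so the p-values describe these mice and not a treatment.

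**Figure D2:**
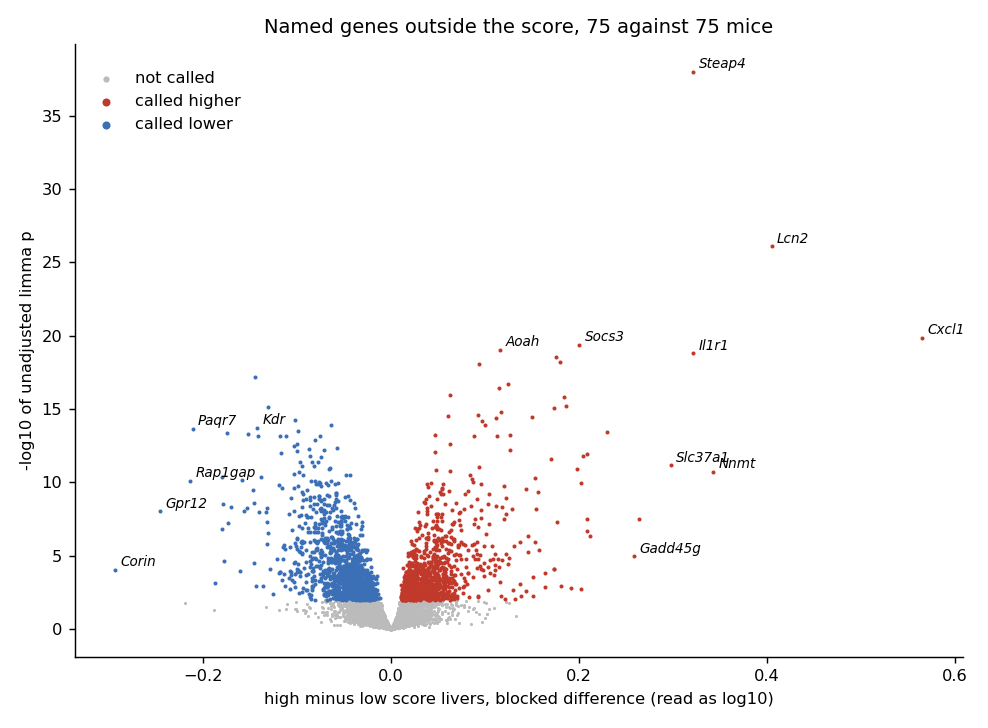
Blocked difference between the 75 high-score and the 75 low-score livers (horizontal axis, read as log10) against -log10 of the unadjusted limma p for each named gene outside the score; red and blue genes passed the adjusted threshold. Steap4 has the smallest p, Cxcl1 the largest difference (3.68-fold), and Corin the largest negative one.

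The acute phase proteins as a list were higher in the high-score livers. Of 25 measured genes outside the score 18 rose and none fell, against 11% of all named genes that rose. Their median difference was 0.115 (1.3-fold), against 0.000406 for all named genes. The count was again 18 without the late mice below the Eif2s3y border, and 19 with the mean of the neutrophil genes as a covariate. With the score made without Orm1, 19 rose and 1 fell.

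Steap4, a metalloreductase of the cell surface and endosomes, separated the groups best by its moderated t. Its log ratio lay between -0.434 and 0.161 in the low mice (median -0.05) and between -0.176 and 0.576 in the high mice (median 0.267). The ranges overlap, but 58 of 75 high mice lay above every low mouse. The difference was 0.322 ± 0.0180 (SE), or 2.10-fold (limma, adjusted p = 1.09e-34). Lcn2 encodes lipocalin 2, which binds the iron carriers of bacteria. It ran from -0.478 to 0.305 (median -0.224) in the low mice and from -0.285 to 0.865 (median 0.157) in the high mice. Here 22 high mice lay above all low ones, and 73 of 75 above the low median. Lcn2 was 2.54-fold higher (difference 0.405 ± 0.0306, adjusted p = 4.42e-23).

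The paralogues of the score genes moved with them. Orm2 was 1.5-fold higher (0.176 ± 0.0169, adjusted p = 4.00e-16), and both of its probes were higher in the high mice, by 0.216 and 0.138 in plain means. Saa4, the constitutive serum amyloid A, was 1.59-fold higher (0.202 ± 0.0291, adjusted p = 1.50e-08). Because these genes resemble the score genes in sequence, signal shared between probes was not tested.

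Of 5 measured protease inhibitors 4 rose (80%, against 11% of all named genes). In a mixed group of 6 genes (Lbp, Cd14, Lrg1, Il1rn, Il1r1 and Il18bp) 3 rose (50%). Itih4, a heavy chain of the inter-alpha-trypsin inhibitor family, ranged from -0.339 to 0.244 in the low and from -0.0537 to 0.572 in the high mice, with medians of -0.0310 and 0.141. The groups overlap over much of that range, and 70 of 75 high mice exceeded the low median. Itih4 was 1.51-fold, Itih3 1.53-fold and Serpina3n, an antichymotrypsin-like serpin, 1.24-fold higher. Lbp, which hands bacterial lipopolysaccharide to CD14, was 1.33-fold higher (adjusted p = 2.08e-14), and Pzp, a broad protease trap, 1.15-fold. Il1r1, the signalling receptor of interleukin-1, stood out with 2.10-fold. It had medians of -0.0848 in the low and 0.296 in the high mice, with 18 high mice above every low one (0.321 ± 0.0307, adjusted p = 2.64e-16).

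The other acute phase genes that passed bind haem or metals, or are pentraxins, fibrinogen genes or Lrg1. Haptoglobin (Hp) was 1.31-fold and hemopexin (Hpx) 1.27-fold higher; they bind free haemoglobin and haem. The zinc and iron importer Slc39a14 was 1.3-fold higher (adjusted p = 3.69e-14). Serum amyloid P (Apcs) was 1.35-fold and Crp 1.14-fold higher. The fibrinogen gamma chain Fgg was 1.21-fold and the fibrinogen-like hepatokine Fgl1 1.43-fold higher, and Lrg1, a leucine-rich glycoprotein of plasma, 1.12-fold.

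The other 7 of the 25 did not pass. Hepcidin (Hamp), the hormone that closes the iron exporter ferroportin, had a difference of 0.123 ± 0.0501 with an adjusted p of 0.0661 and ran from -1.24 to 0.458 in the high mice, nearly the span of the low mice. The ferroxidase ceruloplasmin (Cp) had a difference of 0.0266 and the ferritin light chain Ftl1 one of -0.0164. Cd14 and the interleukin-1 receptor antagonist Il1rn had 0.0541 and 0.0199, with adjusted p of 0.206 and 0.416. A2m and Il18bp lay at -0.000240 and 0.00108, and 11 further listed genes were not measured by a named probe.

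Negative acute phase proteins, which the liver is known to make less of in inflammation, showed little. Of 13 measured plasma carriers, growth factors and apolipoproteins, Ambp and Fetub rose (1.15-fold and 1.14-fold) and Ahsg, fetuin-A, fell by 0.0473 on the log10 scale (adjusted p = 0.00249). The shares were 15.4% higher and 7.69% lower, not far from the 11% and 12.3% of all named genes. Transthyretin (Ttr) had a difference of -0.00308 ± 0.0126 and Apoa1 one of 0.0252 ± 0.0171. Ttr and Apoa1 also mark hepatocytes, but a ratio to a pool of the same livers gives no absolute level of any marker.

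**Figure D3:**
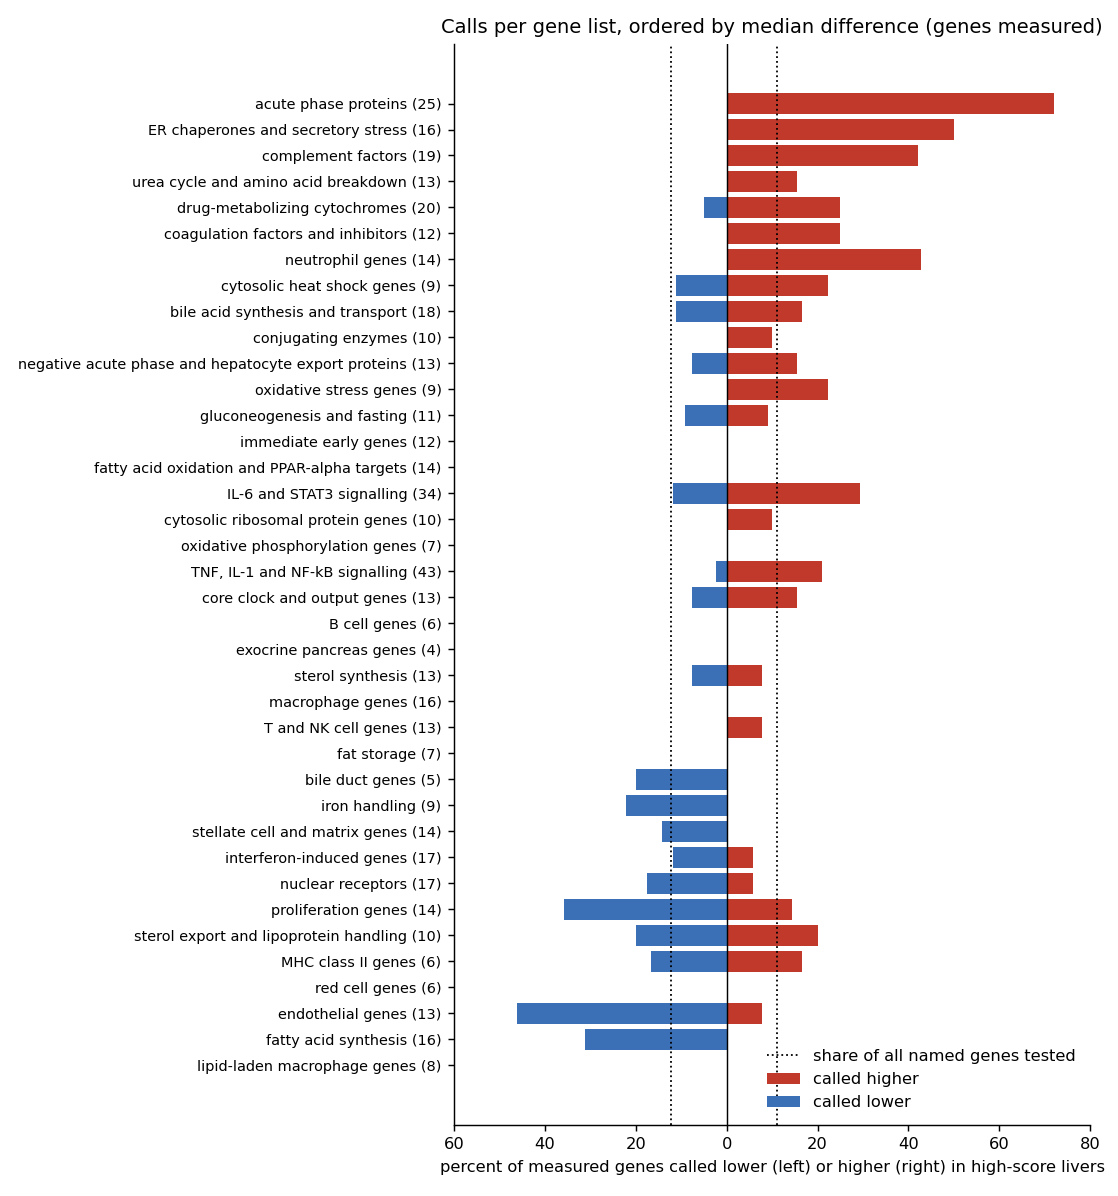
Percent of the measured genes of each list that passed higher (right, red) or lower (left, blue) in high-score livers, ordered by the median difference; the dotted lines are the shares over all named genes, 11% higher and 12.3% lower. Numbers in brackets are measured genes. Acute phase proteins have 72.0% higher and none lower, endothelial genes 46.2% lower.

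In the interleukin-6 and STAT3 pathway 10 of 34 measured genes rose (29.4%, against 11% of all named genes). There 4 fell (11.8%, near the 12.3% of all named genes). The list median was 0.00603, and most of the pathway did not pass. Without the late mice below the Eif2s3y border 8 rose and 2 fell. Among the ligands, Il6 itself was 1.22-fold higher (0.0881 ± 0.0155, adjusted p = 3.28e-06), with medians of -0.0668 and 0.0282. The receptor chains differed: Osmr, the oncostatin M receptor, rose by 1.22-fold, while Il6ra and Il6st, which encodes gp130, had differences of 0.0133 and -0.000363 and did not pass. Stat3 lay between -0.186 and 0.130 in the low and between -0.270 and 0.354 in the high mice, with medians of -0.00971 and 0.0910. The ranges overlap, and 71 of 75 high mice exceeded the low median. Stat3 was 1.29-fold higher (adjusted p = 2.24e-12).

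Of 6 measured inhibitors and feedback genes of this pathway 1 rose (16.7%) and 2 fell (33.3%), against 11% and 12.3% of all named genes. Socs3, the STAT3-induced inhibitor of gp130 signalling and the gene that rose, ran from -0.230 to 0.357 in the low mice and from -0.132 to 0.524 in the high mice (medians -0.0459 and 0.134). Only 5 high mice lay above every low one, although 71 exceeded the low median. Socs3 was 1.59-fold higher (0.200 ± 0.0187, adjusted p = 8.76e-17). Bcl3, an atypical inhibitor-of-kappa-B protein that works with NF-kB p50, was 1.49-fold higher. Junb and Cebpd, transcription factors induced by these cytokines, were 1.11-fold and 1.15-fold higher, whereas Cebpb had a difference of 0.0319 and an adjusted p of 0.131. Socs1, Pias3, Cd274 and the ligand Ctf1 fell, with differences of -0.0503, -0.0466, -0.0619 and -0.0846.

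In the TNF, interleukin-1 and NF-kB list 9 of 43 genes rose (20.9%, against 11% of all named genes). Only 1 fell (2.33%, against 12.3%), and the list median was 0.00346. Cxcl1, a chemokine that attracts neutrophils, had the largest difference of all named genes outside the score. Its log ratio went from -1.09 to 0.530 in the low mice (median -0.230) and from -0.564 to 0.857 in the high mice (median 0.447). The groups overlap widely, and 27 high mice lay above all low ones. Cxcl1 was 3.68-fold higher (0.565 ± 0.0520, adjusted p = 3.62e-17), while its relative Cxcl2 had a difference of 0.0400 ± 0.0284 and did not pass. Nfkbiz, a nuclear cofactor of NF-kB, was 1.32-fold, the kinase Map3k8 1.27-fold and the adhesion molecule Vcam1 1.27-fold higher. The adaptor Myd88 and the TNF receptor Tnfrsf1a were each 1.12-fold higher.

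The classical ligands of that list did not pass. Tnf had a difference of -0.00180 ± 0.0138 and Il1b of 0.0341 ± 0.0188, with adjusted p of 0.950 and 0.197. None of the 4 measured NF-kB subunits passed, where 23.3% of all named genes passed in either direction. Tlr4, the lipopolysaccharide receptor, had 0.00346 ± 0.0160. The gene that fell was Tnfaip2, by 0.102 on the log10 scale. With the neutrophil mean as a covariate 7 genes of this list fell in place of 1, with the macrophage mean 4, and with the score made without Saa3 3.

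Of 19 complement genes 8 rose (42.1%, against 11% of all named genes), 11 did not pass and none fell, including all 4 measured genes of the terminal, pore-forming part: C8a (1.26-fold), C9 (1.24-fold), Hc, which encodes C5 (1.14-fold), and C6 (1.07-fold). Masp1, a protease of the lectin pathway, was 1.12-fold higher. Without the late mice below the Eif2s3y border the count fell to 4. Of 12 coagulation genes F9, F7 and F5 rose (25%, against 11% of all named genes), by 1.12-fold, 1.11-fold and 1.10-fold. Without those late mice 1 rose and 1 fell, and 1 rose with the mouse number as a covariate, so the count of 3 depends on these settings.

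Of 16 chaperones and stress genes of the endoplasmic reticulum, where secreted proteins fold, 8 rose and none fell. The share higher was 50%, against 11% of all named genes, and the list median was 0.0461 (1.11-fold). Xbp1, the transcription factor spliced by IRE1, lay between -0.280 and 0.366 in the low mice and between -0.287 and 0.499 in the high mice, with medians of -0.00897 and 0.129. The ranges nearly coincide, and 59 of 75 high mice exceeded the low median. Xbp1 was 1.32-fold higher (0.121 ± 0.0207, adjusted p = 1.78e-06). The disulfide isomerase Pdia3 was 1.37-fold, Sdf2l1 1.25-fold and Dnajc3, a cochaperone of BiP, 1.22-fold higher. BiP itself, Hspa5, had a difference of 0.0353 ± 0.0155 (adjusted p = 0.0908), and Ddit3, a mediator of prolonged stress, one of -0.0284.

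**Figure D4:**
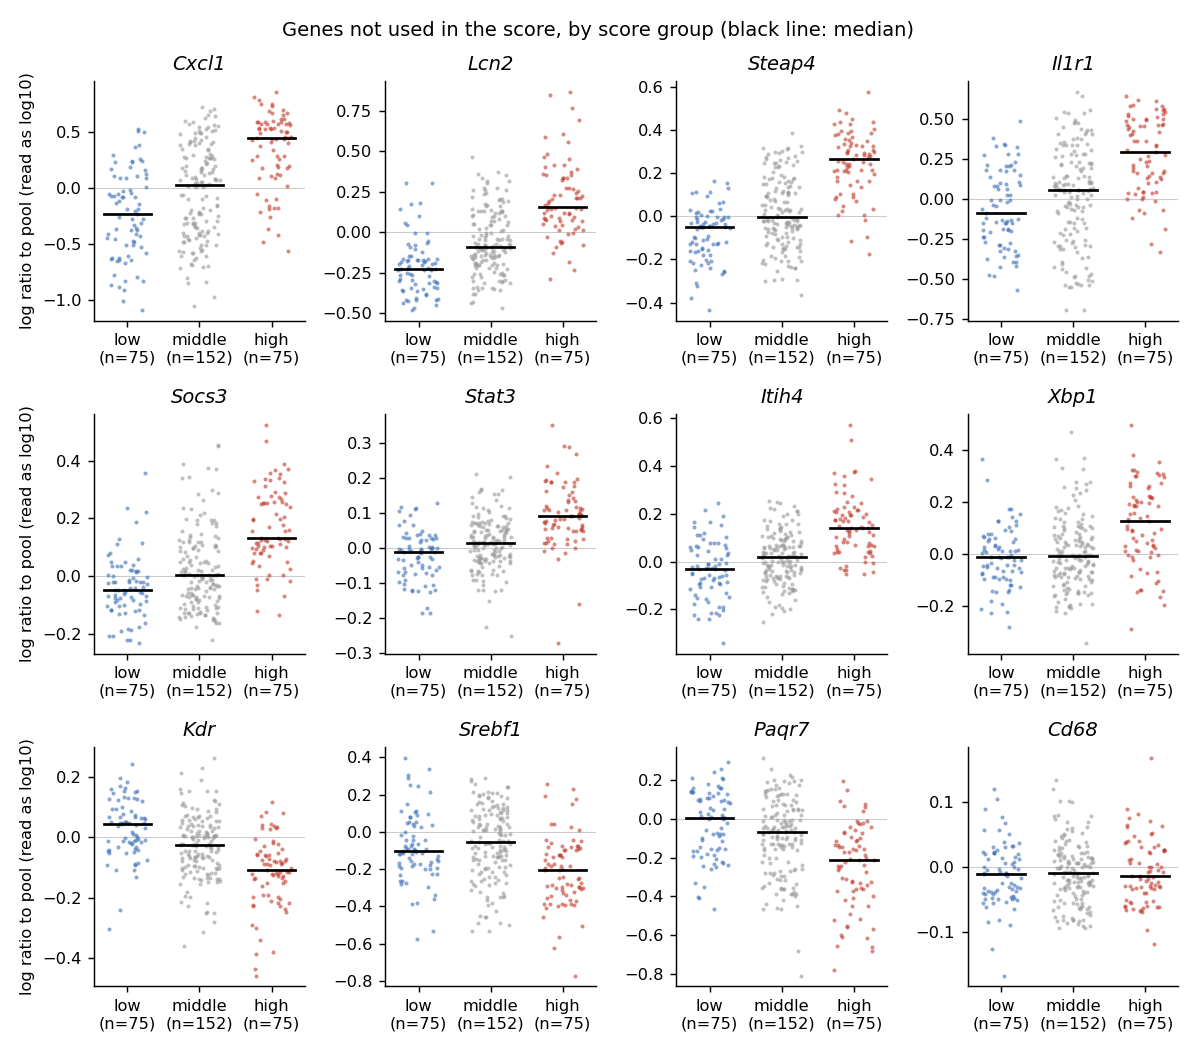
Log ratio to the pool, read as log10, of 12 genes outside the score in the low, middle and high livers; points are mice and black lines medians, and each panel has its own axis. The Steap4 medians are -0.05 and 0.267 in the low and high mice, those of Kdr 0.0437 and -0.108, and the Cd68 medians lie close together.

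Markers of other cells a liver piece can hold were read next; in whole tissue, fewer cells of a type and less RNA per cell cannot be told apart. None of 16 macrophage genes passed, against 23.3% of all named genes in either direction. Their mean level had medians of -0.0627 in the low and -0.0737 in the high mice. The macrophage markers Adgre1, Clec4f and Cd68 had differences of -0.0156, -0.0103 and 0.00492. Of 14 neutrophil genes 6 rose (42.9%, against 11% of all named genes) and none fell. Their mean level ran from -0.138 to 0.239 in the low mice (median -0.0531) and from -0.106 to 0.194 in the high mice (median -0.0173). S100a9 and S100a8, the subunits of calprotectin, were 1.63-fold and 1.42-fold higher, and the chemokine receptor Cxcr2 and the protease Prtn3 1.07-fold and 1.06-fold. The granule genes Mpo, Camp and Ngp had differences of -0.000445, -0.00574 and 0.0152 and did not pass. With the neutrophil mean as a covariate 1497 named genes were higher and 1516 lower, against 1188 and 1326 without it. That mean includes S100a8 and S100a9, and whether neutrophil content accounts for any difference was not tested.

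Endothelial genes went the other way, 6 of 13 falling (46.2%) and 1 rising, against 12.3% of named genes that fell. Kdr, the VEGF receptor 2, lay between -0.303 and 0.241 in the low mice (median 0.0437) and between -0.457 and 0.117 in the high mice (median -0.108). The ranges overlap, and 71 of 75 high mice lay under the low median. Kdr was 1.39-fold lower (-0.143 ± 0.0168, adjusted p = 9.56e-12). The membrane-trafficking gene Ehd3 was 1.21-fold, the scavenger receptor Stab1 1.16-fold and the angiopoietin receptor Tek 1.13-fold lower. Pecam1, Stab2 and Vwf had differences of -0.00596, -0.00622 and -0.0137 and did not pass, and Cdh5 was 1.03-fold higher, so the list did not move as 1 block. Without the late mice below the Eif2s3y border 4 fell.

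T and NK cell genes (1 of 13 rose, Cd3e), B cell genes (none of 6), red cell genes (none of 6) and exocrine pancreas genes (none of 4) gave little. Over all named genes 23.3% passed in either direction, and these lists are small. Of 14 stellate cell and matrix genes Pdgfrb and Timp2 fell, 1.15-fold and 1.14-fold, a share (14.3%) near the 12.3% of all named genes. Among 17 interferon-induced genes Cxcl10 and Mx1 fell (1.40-fold and 1.31-fold) and Stat2 rose (1.10-fold), while Stat2 had the same sign in only 2 of 4 blocks. These shares, 11.8% lower and 5.88% higher, were not above the 12.3% and 11% of all named genes.

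Of 16 fatty acid synthesis genes 5 fell (31.3%, against 12.3% of all named genes) and none rose (median -0.0317). Srebf1, the transcription factor that drives this pathway, lay between -0.574 and 0.399 in the low mice and between -0.771 and 0.256 in the high mice, with medians of -0.103 and -0.206. The overlap was wide, with 52 of 75 high mice under the low median. Srebf1 was 1.32-fold lower (-0.121 ± 0.0272, adjusted p = 0.000327). The desaturases Scd1 and Fads2 were 1.29-fold and 1.26-fold lower and the fatty acid synthase Fasn 1.23-fold lower, but Acaca and Acly did not pass. When the mice were chosen again without Saa3, or the late mice below the Eif2s3y border were left out, 2 of the 16 fell, so the count depends on these choices.

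None of 14 fatty acid oxidation genes and none of 7 fat storage genes passed, where 23.3% of all named genes passed in either direction. Of 13 sterol synthesis genes Fdft1, the squalene synthase, fell (1.17-fold) and Hsd17b7 rose (1.11-fold). Each is 7.69% of the list, against 12.3% lower and 11% higher of all named genes. In lipoprotein handling the phospholipid transfer protein Pltp fell 1.34-fold and the scavenger receptor Scarb1 1.10-fold, while the cholesterol exporter Abca1 and the acyltransferase Lcat rose 1.17-fold and 1.10-fold. Abca1 passed under only 18 of 28 alternative settings.

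Drug-metabolizing cytochromes, often repressed in inflammation, were not lower here as a list: of 20 measured, 5 rose and 1 fell. The shares were 25% higher and 5% lower, against 11% and 12.3% of all named genes. Cyp3a13 was 1.62-fold higher, Cyp2c54 1.31-fold, Cyp2c50 1.24-fold and Cyp2e1 1.14-fold. Only 2 rose without the late mice below the Eif2s3y border or with the mouse number as a covariate, and 3 with the score made without Saa3 or after quantile normalization. Nnmt, which methylates nicotinamide, rose 2.20-fold (0.343 ± 0.0471, adjusted p = 3.44e-09), with low and high medians of -0.0257 and 0.304.

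Of 18 bile acid genes 3 rose (16.7%) and 2 fell (11.1%), shares near the 11% and 12.3% of all named genes, so the list did not stand out. Baat, which conjugates bile acids, and the exporter Abcc2 were each 1.10-fold higher, and the exporter Abcc3 was 1.15-fold lower. The sodium-dependent bile acid transporter Slc10a2 was 1.60-fold higher (adjusted p = 3.72e-10). Among 17 nuclear receptors Nr1d1, the clock repressor REV-ERB alpha, was 1.51-fold lower (-0.179 ± 0.0282), Nr2f2 1.14-fold lower and the oxysterol receptor Nr1h3 1.08-fold lower, while Hnf4a was 1.05-fold higher. In the clock list Nfil3, a repressor that is also induced by cytokines, was 1.42-fold higher and Dbp 1.07-fold lower.

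Growth and stress genes were mixed. Of 14 proliferation genes 5 fell (35.7%, against 12.3% of all named genes), among them Birc5 (1.3-fold), Ccnb2 (1.22-fold) and Ccna2 (1.21-fold). The cell cycle inhibitor Cdkn1a (1.35-fold) was 1 of 2 that rose (14.3%, near the 11% of all named genes). Without the late mice below the Eif2s3y border 2 fell, and 3 with the mouse number as a covariate or the score made without Saa3. The haem-degrading enzyme Hmox1 rose 1.55-fold (0.191 ± 0.0598, adjusted p = 0.0127), and Igfbp1, an insulin-suppressed hepatocyte gene, 1.52-fold. Of 13 urea cycle and amino acid genes Got1 and Tdo2 rose (1.34-fold and 1.2-fold), a share (15.4%) near the 11% of all named genes. None of 12 immediate early genes and none of 7 oxidative phosphorylation genes passed, against 23.3% of all named genes in either direction. In iron handling Hjv and Tmprss6, which act upstream of hepcidin, fell 1.12-fold and 1.11-fold.

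The remaining genes of largest positive difference belong to no single list. The sugar phosphate exchanger Slc37a1 was 1.99-fold higher (adjusted p = 1.47e-09), Fbf1 1.84-fold, the growth arrest gene Gadd45g 1.81-fold, Tacc2 1.70-fold, Map3k6 1.62-fold, the amino acid transporter subunit Slc3a1 1.61-fold and the estrogen sulfotransferase Sult1e1 1.59-fold. Sult1e1 had the weakest support of these (adjusted p = 0.0133), and its log ratio ran from -1.10 to 0.956 in the low mice alone. Aoah, which deacylates and so inactivates lipopolysaccharide, was only 1.31-fold higher, but among the 5 genes with the largest moderated t (0.116 ± 0.0110, adjusted p = 1.72e-16).

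Of the genes of largest negative difference, Corin, a protease that activates atrial natriuretic peptide, came first (1.96-fold lower, -0.293 ± 0.0730, adjusted p = 0.00135). It spread from -1.31 to 0.411 in the low and from -1.52 to 0.496 in the high mice, so its groups overlap almost entirely. The progestin receptor Paqr7 showed a clearer shift, with medians of 0.00721 and -0.211 and 68 of 75 high mice under the low median. Paqr7 was 1.62-fold lower (-0.211 ± 0.0249, adjusted p = 1.07e-11). The receptor Gpr12 was 1.76-fold, the Rap1 regulator Rap1gap 1.63-fold, Rfx4 1.51-fold, the tight junction gene Tjp3 1.51-fold and the keratin Krt23 1.51-fold lower. Zfp467 (1.5-fold), Mest (1.49-fold), the water channel Aqp8 (1.48-fold), Knstrn (1.45-fold), Chst7 (1.44-fold), Tns3 (1.43-fold) and Tfap4 (1.42-fold) completed the 15.

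The 152 mice in neither group gave a check on mice that the comparison had not used. There the slope on the score passed for 12 named genes (0.111%), 10 positive (0.0925%) and 2 negative (0.0185%), and all 12 had passed with the same sign between the extremes. They were Steap4 (0.157 ± 0.0274 per unit of score, adjusted p = 0.000299), Prdm15, Orm2, Lcn2 (0.188 ± 0.0387, adjusted p = 0.00795), Glp1r, Serpina3n, Il13ra1, Prss21, Itih4 and Plau with positive slopes, and L3mbtl2 and Mlycd with negative ones. Cxcl1 had a slope of 0.299 ± 0.0764 (adjusted p = 0.0817) and Socs3 one of 0.0888 ± 0.0270 (adjusted p = 0.175), neither past the threshold. Of the 2514 genes called between the extremes, 2246 (89.3%) had the same sign of slope in the middle mice, against 68.5% of all named genes. For the acute phase list this held for all 18 called genes. The middle count is unstable: 5 genes passed with the score made without Saa3, 6 after quantile normalization, and 68 without the block.

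**Figure D5:**
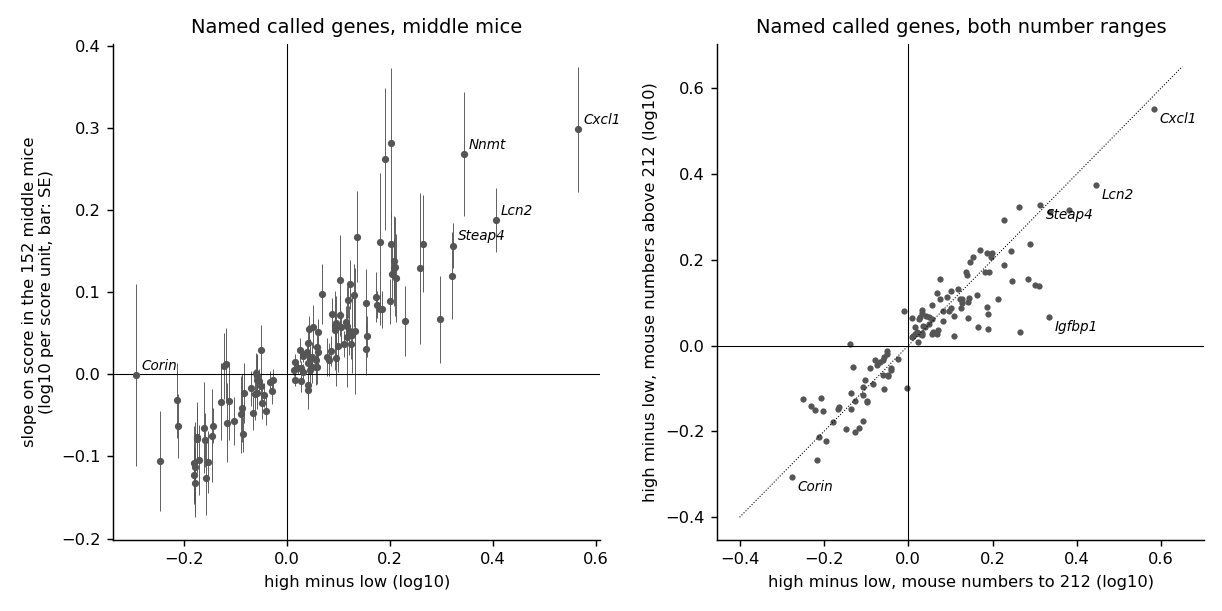
Left, slope on the score in the 152 middle mice against the difference between the extreme groups, for the 120 called genes picked by the naming rule. The slope is vertical (log10 per unit of score, bars are SE) and the difference horizontal (log10). Right, the same difference in mice with numbers above 212 (vertical) against numbers up to 212 (horizontal); the dotted line marks equal size. Cxcl1, at 0.552 and 0.584, and Lcn2, at 0.374 and 0.446, lie near it.

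The difference was also set against the 2 features that make up the blocks. No named gene (0%) passed for an interaction with the Eif2s3y side in limma, where 679 had an unadjusted p under 0.05 and the lowest adjusted p was 0.411. Cxcl1 differed by 0.437 in mice above the border and by 0.720 in those below it, an interaction of -0.283 ± 0.102 (adjusted p = 0.686). For the ranges of mouse number 60 named genes (0.555%) passed, 31 with a more positive difference at late numbers and 29 at early numbers, and 52 of them had opposite signs in the ranges. Of these 60 genes 15 also passed in the comparison of extremes. For Steap4, Lcn2, Cxcl1, Socs3 and Aoah the interaction with the number range did not pass.

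On the arrays themselves, the SD over probes had medians of 0.0968 in the low and 0.1 in the high mice, and 6 arrays of the series exceeded 1.5 times the median SD, of which 2 were low mice and none high ones. Array medians ran from -0.0115 to 0.0172. The lowest correlation between 2 arrays was -0.510, and 889 of 45451 pairs lay under -0.3. The labels put the liver in the same dye on every array, but do not state which way the ratio runs. All arrays were read as mouse over pool, and every difference called higher or lower rests on that reading. Leaving out the 6 arrays gave 1139 higher and 1274 lower genes.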

How the data were processed

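Each of 302 arrays gave 1 liver's RNA against the common pool. Per the labels' protocols, Qiagen RNeasy kits with DNAse treatment gave the RNA, and the MessageAmp II kit in an automated, aminoallyl version the labelled product. The image analysis, background treatment and scaling behind the ratios were not given in the sources used here. What the authors deposited is a table of ratios to the pool on a log scale, taken here as log10, for 23562 probes, with base and direction unstated. It was read as log10 of mouse over pool: values end at 2 and -2, a 100-fold ratio, and the median of Eif2s3y in the 160 mice above its border, 0.195, lies nearest the 0.276 that log10 would give if only these mice (53.0%) carried its RNA (log2 0.916, natural log 0.635). As linear ratios averaged over all mice, where an equal pool of these mice gives 1, Eif2s3y came to 0.855 read this way and 25.8 with the sign turned. The direction is thus likely but not stated.

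Probes with values in at least 90% of mice were used (23512), 0.0831% of values being missing and passed over in each fit. Of the probes, 13655 had 1 annotated symbol and 48 several. Names were updated to RefSeq symbols of GRCm38.p6 (12652 probes by gene identifier, 4 by accession; 999 unmatched), and probes of a gene were averaged, giving 10812 tested genes beside 10888 unnamed probes. The score genes were left out. The extremes were compared with limma 3.58.1 in R 4.3.3 (lmFit, eBayes, 4 blocks, two-sided, Benjamini-Hochberg at 0.05 over all 21700 rows); the slope on the score in the middle mice and both interactions were fitted likewise. Every adjusted p is from limma, and ± is an SE. The fits were tested on simulated data.

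The score genes, groups and gene lists were chosen with earlier results of these data known. A naming rule picked the 15 genes of largest difference each way with 1 sign in all 4 blocks and all measured acute phase genes. It also picked up to 4 called genes of each other list, by size, and the 5 genes of largest moderated t. Genes that define a list, further called genes of some lists and the genes that passed in the middle mice are given outside that rule. Alternatives covered the size of the groups, the score, blocks, scaling, filters, covariates and each block left out or alone. The number of arrays limits the precision.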

Additional observations from a re-analysis of the deposited data

Results flagged for a closer look

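The difference between high-score and low-score livers changed with the range of mouse number in 60 named genes by limma's interaction term. Listed here are the 5 with the smallest adjusted p and those that belong to a gene list. Kcne3, a potassium channel subunit, was higher in high-score livers by 0.158 at numbers up to 212 and lower at later numbers (-0.221), an interaction of -0.379 ± 0.0704 (SE, adjusted p = 0.0025). Relb, an NF-kB subunit, went from 0.0859 to -0.146 (interaction -0.232 ± 0.0494, adjusted p = 0.0131). The immediate early gene Klf6 went from 0.187 to -0.0302 (interaction -0.218, adjusted p = 0.0473) and Rasa2 from 0.0702 to -0.0584 (-0.129, adjusted p = 0.00357). Bpifa1 went from -0.0445 to 0.0578 (0.102, adjusted p = 0.0025), Nr2f1 from -0.0901 to 0.0128 (0.103, adjusted p = 0.0496) and Llgl2 from -0.144 to -0.0121 (0.132, adjusted p = 0.00473). Of these 7 genes, Llgl2 alone had passed in the comparison of extremes, where it was lower in high-score livers (adjusted p = 6.88e-05). What differed between the ranges besides the number is not in the labels.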

How the results depend on the processing

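The alternatives were followed gene by gene only for the genes picked by the naming rule, of which 120 had passed. Other genes given in the text, such as Osmr, Junb and Tnfaip2, were not followed. Of the 120, 68 passed with the same sign under all 28 alternatives other than single blocks. Another 3 (Cd3e, Cxcr2 and Hnf4a) passed under the 27 that tested them. The threshold was lost under at least 1 by 49, and none reversed there. Among these 49, Abca1, Cyp2c50, Cyp2c54 and Stat2 passed under only 18 of the 28, Cdkn1a under 19, and Ccnb2 and F7 under 20. In a permutation test of each gene within the blocks (100000 draws, two-sided) all 120 had an unadjusted p under 0.05. They had been called on the same mice at an adjusted threshold, so this outcome was largely set by the call and adds no support. Hamp, Cp and Ftl1, which had not passed in limma, also had unadjusted permutation p under 0.05 (0.0163, 0.0348 and 0.0432). Against 1188 higher genes, 743 passed with groups of 50, and 626 among rows with an SD above the median. Leaving out the late mice above the Eif2s3y border gave 781 higher, and leaving out those below it 607 higher and 883 lower, against 1326. Single blocks, with fewer mice, gave 81 higher and 65 lower (early, above), 87 and 73 (late, above), 344 and 499 (early, below) and 323 and 362 (late, below). In the middle mice 12 genes passed, but 68 without the block, 6 after quantile normalization, 5 with a score without Saa3, and 518 with the wider middle left by groups of 50; the cause was not tested.

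Reversals touched genes near 0 or single blocks. A2m, -0.000240 as reported, turned to 0.00204 and 0.00176 with groups of 50 and 100, 0.000160 for the slope over all mice, 5.05e-05 without block or with the Eif2s3y side alone, 0.000928 and 0.00868 with scores without Saa1 and Orm1, 0.00145 and 0.00272 with markers scaled or ranked within blocks, 0.00298 and 0.00184 with arrays scaled or quantile-normalized, 0.000317 with the neutrophil covariate, 0.00608 and 0.0125 without the early or the late mice above the border, and 0.0606 and 0.0113 in the early and late mice below it. Il18bp turned to -0.00436 and -0.00334 with scores without Saa2 and Orm1, -0.0237 with the neutrophil covariate, -0.00379 and -0.00871 without the late mice above and the early mice below, and -0.00920 and -0.0308 in the early mice above and the late mice below. In the early mice above, Stat2 was -0.00199; in the late mice above, Cd14 was -0.0284 and Tek 0.00247; in the late mice below, Cd14 was -0.00980, Il1rn -0.00921 and Nr2f2 0.0226. In the early mice below, Hamp was -0.0453, Fgg -0.00217, Pzp -0.00331, Lrg1 -0.00936, Ambp -0.00778, Fetub -0.0145, Hc -0.00909, F7 -0.0307, Prtn3 -0.00149, Cd3e -0.0276, H2-DMa -0.00451, Stat2 -0.0212, Fasn 0.0266, Lcat -0.00725, Txnrd1 -0.00257 and Ccna2 0.00651.

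Array scaling and quantile normalization moved the median of all genes to 0.000592 and 0.000986. The alternatives without arrays of large SD and with the mouse number as a covariate were chosen after seeing the data; the latter gave 956 higher and 1065 lower genes. No paired analysis was possible because each mouse has a number of its own and the groups share none.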

Other observations

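Further genes, chosen after their values were seen, passed in limma with the same sign in all 4 blocks. Prg4, which encodes the lubricating glycoprotein lubricin, was 1.54-fold higher in high-score livers (0.187 ± 0.0206, SE, adjusted p = 4.93e-13). Fkbp5, a cochaperone induced by glucocorticoids, was 1.5-fold higher, and Lpin1, a phosphatidate phosphatase and transcriptional cofactor, 1.46-fold (0.164 ± 0.0501, adjusted p = 0.0102). The nicotinic acid receptor Hcar2 was 1.44-fold, the growth factor Nrg4 1.43-fold, the transporter Slc10a6 1.42-fold and the activin subunit Inhbb 1.38-fold higher. In the middle mice none of these 7 passed for the slope on the score; Prg4 came nearest, with 0.0929 per unit of score (adjusted p = 0.0543).

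Lower genes of the same kind included Ssbp3 (-0.145 ± 0.0147, adjusted p = 7.61e-15), the tight junction gene Cldn3 (-0.152 ± 0.0183) and the erythropoietin receptor Epor (-0.118 ± 0.0143). Lgr5, Sp5, Nkd1 and Rspo1, which encode a Wnt receptor partner, a Wnt-induced transcription factor, a Wnt inhibitor and a Wnt agonist, had differences of -0.106, -0.107, -0.103 and -0.108, with adjusted p of 0.00165, 0.00149, 4.58e-09 and 0.00366. No list of Wnt genes was tested, so these genes, picked by their values, do not speak for Wnt genes as a group.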
